A study of Mus musculus with 6 samples.

Results

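Collagens and the cartilage matrix genes that SOX9 is known to control in chondrocytes were examined in ER-negative luminal cells of the mouse mammary gland, with and without Sox9. The 47 genes were every collagen chain with an annotated probe set, such as Col2a1, together with Acan, Comp, Hapln1, Matn1 and Cnmd, out of 19505 named genes on the array. They were picked by gene name, with earlier results of these data known, and each was represented by 1 probe set. The Sox9 KO group, called Sox9-cKO by the study, was 3 mice with Sox9 floxed on both alleles and the MMTV-iCre transgene, whose Cre is driven by a mouse mammary tumor virus promoter active in mammary epithelium. The WT group was 3 mice with the same floxed alleles and no Cre. The study used conditional knockout females on a mixed C57BL/6J and FVB/NJ background, 8 to 12 weeks old and in diestrus, and the glands of each animal were digested and sorted on their own. Flow sorting took cells negative for lineage markers and Sca1, high for EpCAM and low for CD49f in both groups, and the Sox9 KO sort had a further gate on the Cre-activated reporter ECFP. The deletion, the Cre transgene and that gate cannot be told apart. Each group was hybridised to 3 Affymetrix Clariom S Pico mouse arrays, and values are log2 signals, on which a difference of 1 is 2-fold.

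Collagens are triple-helical proteins built from alpha chains, and they form the fibrils, networks and filaments of the extracellular matrix. In cartilage, SOX9 with its partners SOX5 and SOX6 switches on Col2a1, Acan and other matrix genes through paired binding sites in enhancers, and loss of SOX9 blocks cartilage formation. In the mammary gland, fibroblasts make most fibrillar collagen, and the epithelium rests on a basement membrane rich in collagen IV. SOX9 in the gland is known as a factor of luminal progenitors and mammary stem cells, and these arrays allow the cartilage genes to be read in a tissue where SOX9 is present without cartilage.

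Sox9 itself was measured first. Its log2 signal was 6.73, 7.84 and 7.51 in the Sox9 KO arrays, against 11.60, 11.54 and 11.47 in the WT arrays. The groups lay far apart, and the difference of -4.18 (SE 0.27) passed the adjusted threshold (adjusted p = 0.00867, limma). With 1 WT array left out the adjusted p was 0.0627, 0.147 and 0.0943 (without WT replicate 1, 2 and 3, limma), at differences of the same direction. Of 6 luminal markers 5, and of 8 ER-negative luminal markers 7, lay above the background bar on all 6 arrays. That bar is the 95th percentile of the 5222 negative control probe sets on the same array, and 20.8% to 29.6% of all tested probe sets exceeded it on any array. At an unadjusted p under 0.05, 2 of the 6 luminal markers and 4 of the 8 ER-negative luminal markers were lower in Sox9 KO cells, and 4 of 10 basal markers were higher. Over all probe sets 4.99% were lower and 4.28% higher at that threshold. None of these markers passed the adjusted threshold. Of 4 measured ER-positive luminal markers, 3 (Cited1, Prom1 and Pgr) were above the bar on WT replicate 3 and on no other array. The part of these marker shifts in the values below was not tested. Sox9 KO replicate 1 stood apart on the first principal component, with a score of 57.4 against scores from -27.1 to 15.1 for the other arrays. For the genes described here Sox9 KO replicate 3 was often the highest array. Of the 27 genes described singly, the difference turned its sign or moved by over 1.5 times for 13 without Sox9 KO replicate 1. It did so for 19 without Sox9 KO replicate 3, and for 11 to 14 without any 1 of the other arrays. Differences near 0 are counted after a small shift, so the counts do not show how many differences rest on few arrays.

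No collagen or cartilage gene differed between Sox9 KO and WT cells at the adjusted threshold. Over all 22206 probe sets 0.00901% passed it, which were 2 probe sets, so 0 of 47 was close to the background. At an unadjusted p under 0.05, 2 of the 47 (4.26%) were called, Col19a1 and Col5a1, against 9.26% of all probe sets. Both were higher in Sox9 KO cells, a direction in which 4.28% of all probe sets were called, and 0 were lower, against 4.99%. None passed 2-fold with an unadjusted p under 0.05, which 1.14% of all probe sets did. The 3 Sox9 KO values and the 3 WT values did not overlap for 4 genes (8.51%), against 14.1% of all probe sets. Of these, Col19a1, Col5a1 and Col15a1 were higher in Sox9 KO cells (6.38%, against 6.85%) and Col25a1 was lower (2.13%, against 7.3%).

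The differences were small in both directions. Of the 47 genes, 25 had a higher mean in Sox9 KO cells, 20 a lower one, and Col6a3 and Col13a1 had equal means (2 genes). The median difference was 0.02, beside 0.01 for all 19505 genes, and the median size of the difference was 0.14, beside 0.15. The range ran from -0.75 for Col18a1 to 0.59 for Col3a1. For 43 of 47 genes (91.5%) the whole 95% interval lay within 1 of no difference, against 88.5% of all probe sets, so a 2-fold change of array signal lay outside the interval. The exceptions were Col18a1, Col3a1, Col5a1 and Cnmd.

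**Figure D1:**
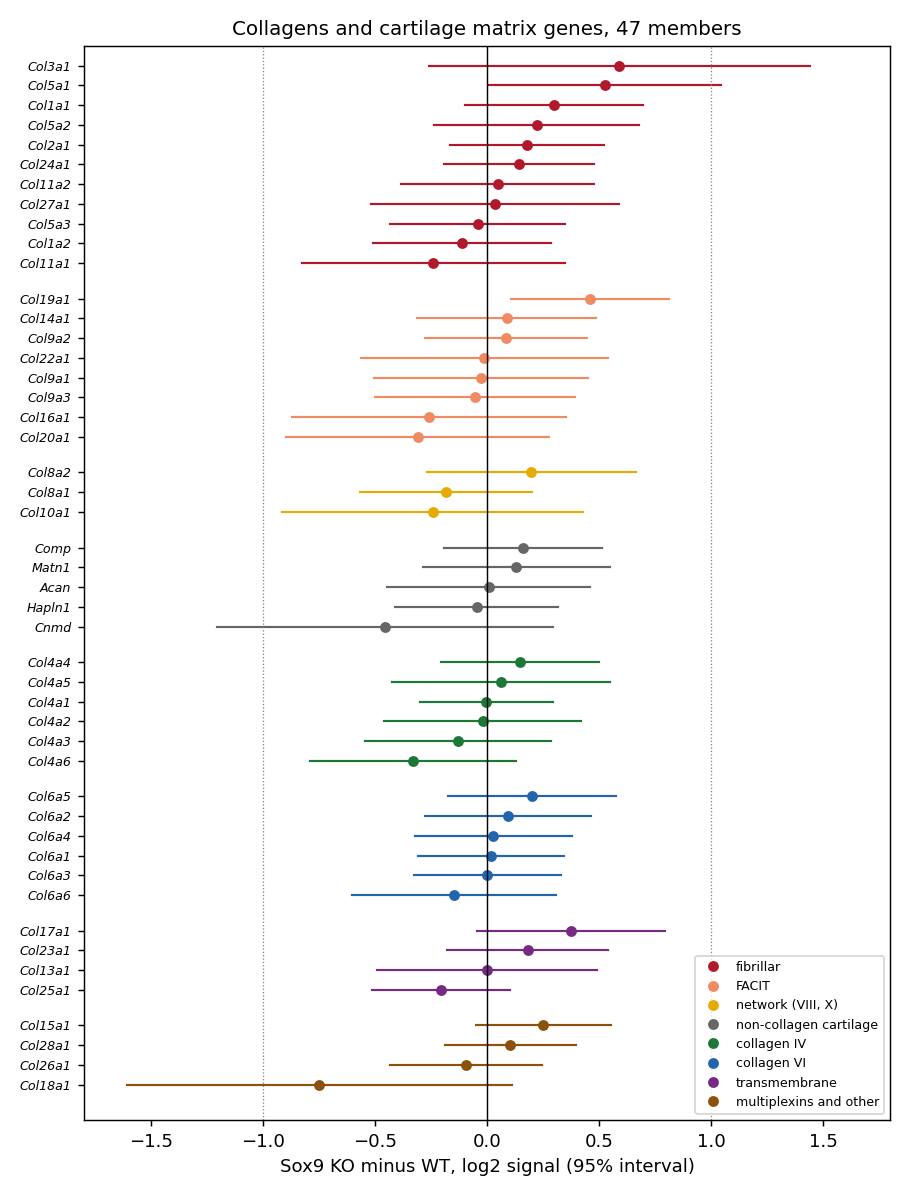
Difference in log2 signal, Sox9 KO minus WT (points, n = 3 arrays each), with the 95% interval of the limma fit (lines), for the 47 genes grouped by kind and coloured as in the key. The solid line marks no difference and the dotted lines mark 2-fold; only Col19a1 and Col5a1 have an interval that leaves out 0.

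Nearly all of these genes had signals within the range of the negative controls. None lay above the bar on all 6 arrays, whereas 3816 of the 19505 genes did. Of the 47, 42 lay above it on none, a larger share than the 12857 of all 19505 genes. Col9a3 and Col16a1 passed it on 4 arrays each, 2 Sox9 KO and 2 WT. Col1a1, Col11a2 and Col13a1 passed it on 1 array each, in every case Sox9 KO replicate 3. That array had the lowest bar, at 7.75, against 7.87 to 8.58 on the other arrays, so its count depends in part on the bar. On single arrays 1, 1 and 5 of the 47 lay above the bar in Sox9 KO cells, against 1, 1 and 2 in WT cells. The negative controls themselves had a median of 4.62 in Sox9 KO arrays and 4.85 in WT arrays, so positions relative to them run higher in Sox9 KO than the signals do. Differences of such dim probe sets are compressed towards 0, and with no detection calls in the data a gene here cannot be called absent. Signals of different probe sets are not compared with each other.

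**Figure D2:**
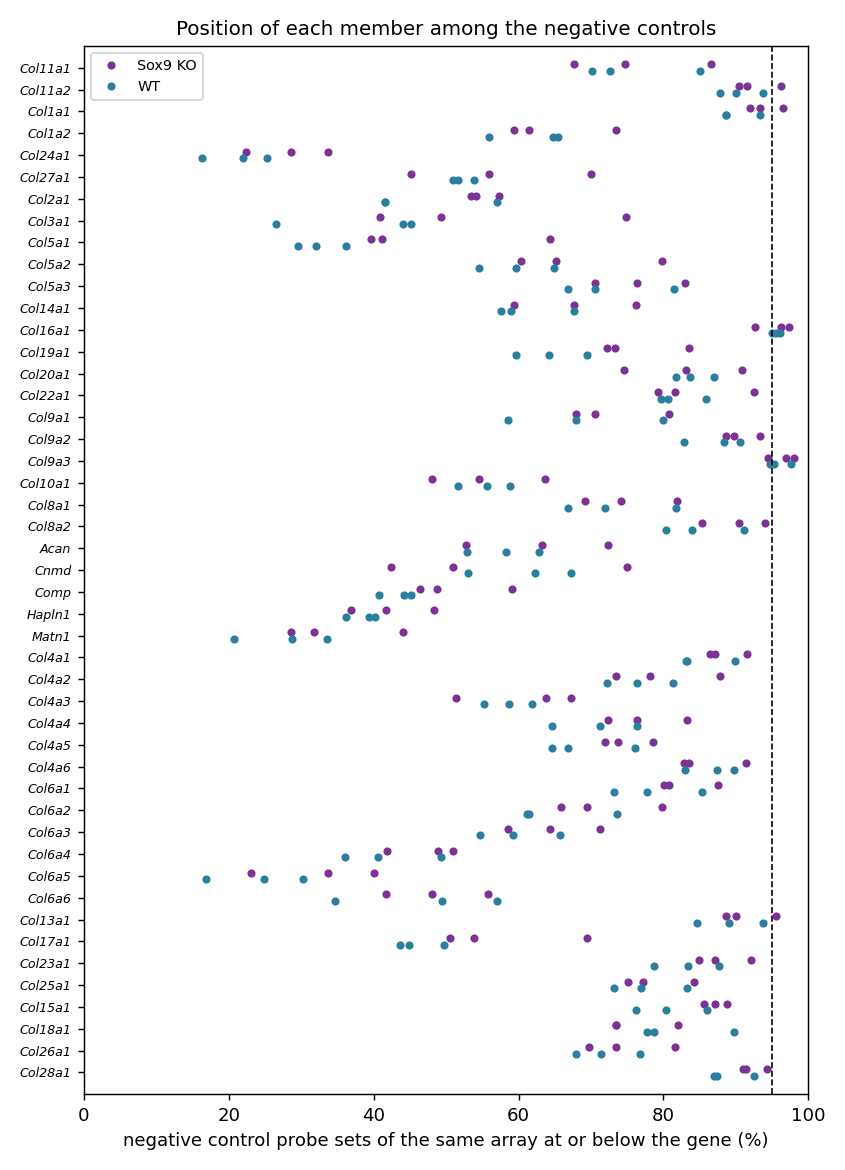
Share of the 5222 negative control probe sets of the same array at or below each gene (percent), for the 3 Sox9 KO arrays and the 3 WT arrays (one point each), genes in the same groups as in the plot of differences. The dashed line is the 95% bar; only Col9a3 and Col16a1 cross it on 4 arrays, and Col1a1, Col11a2 and Col13a1 on 1.

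The 13 SOX9 cartilage genes are the 8 collagen genes Col2a1, Col9a1, Col9a2, Col9a3, Col10a1, Col11a1, Col11a2 and Col27a1 with the 5 non-collagen genes. None differed at an unadjusted p under 0.05. Their means were higher in Sox9 KO cells for 7 and lower for 6, with a median difference of 0.0067 and a range from -0.46 to 0.18. For 12 of the 13, all but Cnmd, the interval lay within 1 of 0. On the array means, the cartilage genes lay at -0.10, -0.18 and 0.18 in the Sox9 KO arrays and at 0.0095, 0.03 and -0.04 in the WT arrays, each relative to the mean of the WT arrays. Of the 13 probe sets, 11 were above the bar on no array and 2 on some.

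Col2a1, the main fibrillar collagen of cartilage and a direct SOX9 target in mouse chondrocytes, had signals of 4.95, 4.90 and 4.72 in Sox9 KO cells, against 4.63, 4.53 and 4.88 in WT cells. The groups overlapped, and the difference was 0.18 (SE 0.15, 95% interval -0.17 to 0.52). Acan, which encodes the large proteoglycan aggrecan, had signals of 5.41, 4.85 and 5.53 in Sox9 KO cells, against 5.20, 5.37 and 5.20 in WT cells. The lowest value and the highest were both Sox9 KO values, and the difference was 0.0067 (95% interval -0.45 to 0.46). Hapln1, the link protein that holds aggrecan to hyaluronan, measured 4.17, 4.34 and 4.32 in Sox9 KO cells, against 4.57, 4.29 and 4.11 in WT cells. Its WT values spanned the Sox9 KO values, with a difference of -0.05 (SE 0.16).

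Matn1, a matrilin that links matrix components, measured 3.94, 3.78 and 4.15 in Sox9 KO cells and 3.66, 4.14 and 3.68 in WT cells. Comp, a pentameric adaptor of cartilage and tendon, measured 4.60, 4.66 and 4.80 in Sox9 KO cells and 4.60, 4.69 and 4.29 in WT cells. Both overlapped, with differences of 0.13 (SE 0.18) and 0.16 (SE 0.15). Cnmd, which encodes chondromodulin, an inhibitor of vessel growth, had the widest difference of the 13. Its signals were 4.40, 4.77 and 5.67 in Sox9 KO cells, against 5.70, 5.07 and 5.44 in WT cells. Sox9 KO replicates 1 and 2 lay below every WT value while replicate 3 lay among them, and the difference was -0.46 (SE 0.32, 95% interval -1.21 to 0.30; adjusted p = 0.713, limma). Without Sox9 KO replicate 1 it was -0.18, and without replicate 3 it was -0.82 (adjusted p = 0.235, limma).

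Among the cartilage collagens, those of collagen IX, which coats the surface of collagen II fibrils, stayed close between genotypes. Col9a3 gave 8.51, 8.04 and 8.76 in Sox9 KO cells, against 8.48, 8.47 and 8.52 in WT cells. The WT values fell inside the Sox9 KO range, and the difference was -0.05 (95% interval -0.50 to 0.39). Col9a1 and Col9a2 differed by -0.03 and 0.08, with SEs of 0.21 and 0.16. Col11a1 and Col11a2, the chains of the collagen XI core of cartilage fibrils, differed by -0.24 (SE 0.25) and 0.05 (SE 0.19). Without Sox9 KO replicate 1 Col11a1 differed by -0.0083, and without replicate 3 by -0.48. Col27a1, a fibrillar chain of developing cartilage, differed by 0.03 (SE 0.24). Col10a1, the marker of hypertrophic chondrocytes, had signals of 5.43, 4.63 and 4.59 in Sox9 KO cells, against 5.34, 5.40 and 4.64 in WT cells. Each genotype held high and low values, and the difference was -0.24 (SE 0.29), or -0.52 without Sox9 KO replicate 1 and -0.10 without replicate 3.

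SOX proteins bind cores related to ACAAAG and ACAATG, so the promoters were searched for these on both strands. Windows of 250 bases before to 50 bases after each annotated start came from RefSeq on GRCm38.p6, and 38 of the 47 genes matched, with 41 windows. No window was available for Col2a1, Col9a3, Comp, Col1a1, Col5a2, Col4a3, Col14a1, Col22a1 and Col26a1, so these were not searched. A core was present in 5 windows (12.2%), of Col3a1, Col20a1, Col28a1, Col10a1 and Col17a1, beside 28.6% of all 32851 windows. A match is a string of letters and not a shown binding site, and many enhancers that SOX9 uses in cartilage lie outside these windows. The windows of a cartilage gene with a core and of one without are printed here. The Col10a1 window, chr10:34389731-34390030 on the plus strand, holds ACAAAG at position -185 from the start (capitals). The Acan window, chr7:79052976-79053275 on the plus strand, holds neither core.
Col10a1: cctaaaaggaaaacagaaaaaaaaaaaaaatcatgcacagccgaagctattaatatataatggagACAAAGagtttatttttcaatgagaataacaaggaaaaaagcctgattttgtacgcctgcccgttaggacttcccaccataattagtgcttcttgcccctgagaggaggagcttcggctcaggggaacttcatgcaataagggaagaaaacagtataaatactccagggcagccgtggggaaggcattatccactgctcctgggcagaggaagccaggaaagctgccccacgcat
Acan: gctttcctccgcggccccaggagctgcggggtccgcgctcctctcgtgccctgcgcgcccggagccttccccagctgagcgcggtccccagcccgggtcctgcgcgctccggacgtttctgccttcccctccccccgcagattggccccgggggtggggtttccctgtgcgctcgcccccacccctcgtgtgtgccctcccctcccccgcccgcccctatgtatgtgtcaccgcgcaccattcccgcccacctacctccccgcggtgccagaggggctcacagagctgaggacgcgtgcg

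Fibrillar collagens, the chains of the banded fibrils of connective tissue, had more chains with a higher than with a lower mean in Sox9 KO cells. Of 11 chains 8 had a higher mean and 3 a lower one, with a median difference of 0.14. At an unadjusted p under 0.05, 1 was called higher, a direction in which 4.28% of all probe sets were called. That gene was Col5a1, a chain of collagen V, which starts fibril assembly. Its signals were 4.28, 4.31 and 5.08 in Sox9 KO cells, against 4.05, 4.07 and 3.97 in WT cells. All Sox9 KO values exceeded all WT values, and replicate 3 was far above the other Sox9 KO arrays. The difference was 0.53 (SE 0.22, 95% interval 0.0083 to 1.05; adjusted p = 0.532, limma), and it was no longer called without Sox9 KO replicate 3 (0.27) or without any 1 of the WT arrays.

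Col1a1, a chain of collagen I, the most abundant collagen of connective tissue, had signals of 7.57, 7.83 and 8.15 in Sox9 KO cells, against 7.62, 7.49 and 7.55 in WT cells. Replicates 2 and 3 of Sox9 KO lay above every WT array and replicate 1 did not, with a difference of 0.30 (SE 0.17). Its partner chain Col1a2 differed by -0.11 (SE 0.17). Col3a1, the fibrillar collagen of reticular tissue, had signals of 4.33, 4.69 and 5.66 in Sox9 KO cells, against 4.76, 3.82 and 4.33 in WT cells. Only replicate 3 of Sox9 KO lay above all WT values, and the difference of 0.59 (SE 0.37, 95% interval -0.26 to 1.44) was within that spread. Without Sox9 KO replicate 1, Col3a1 (0.87), Col1a1 (0.44) and Col17a1 (0.49) were also called at an unadjusted p under 0.05, which made 5 of 47 higher, against 3.98% of all probe sets in that fit. Their adjusted p-values were 0.591, 0.556 and 0.571 (limma). Without Sox9 KO replicate 3 the same 3 differences were smaller, at 0.21, 0.15 and 0.21, and none was called.

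**Figure D3:**
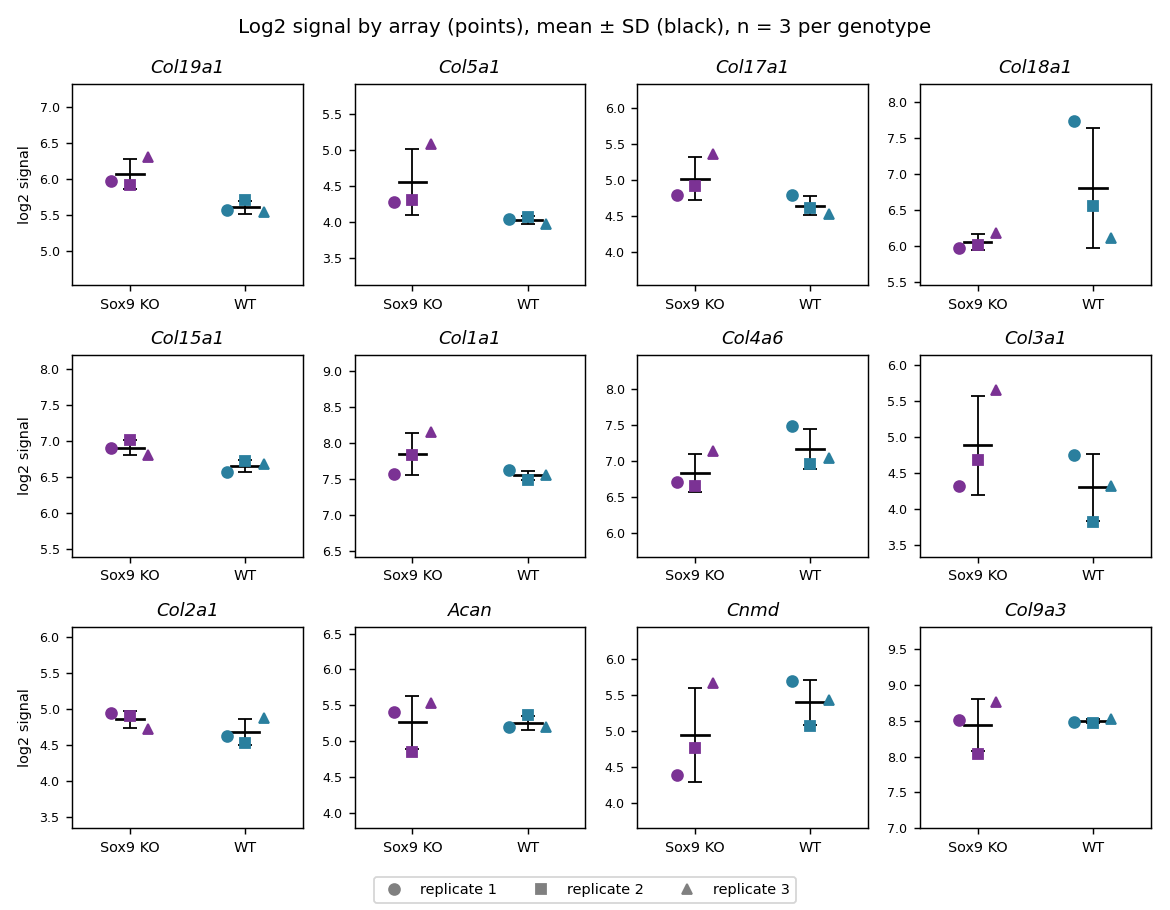
Log2 signal on each array for the 8 genes with the smallest p and for Col2a1, Acan, Cnmd and Col9a3, Sox9 KO (purple, left) and WT (blue, right), with the mean and SD (black, n = 3). Each panel spans the same height on the log2 scale; the groups separate for Col19a1, Col5a1 and Col15a1, and replicate 3 (triangle) is the highest Sox9 KO array in every panel but those of Col15a1 and Col2a1.

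Sox9 KO replicate 3 was high for many of these genes. It was the single highest array for 24 of the 47 genes (51.1%), against 22.2% of all genes, while Sox9 KO replicate 1 was the highest for 2 (4.3%), against 17.3%. Relative to the mean of the WT arrays, the fibrillar collagens averaged -0.05, 0.03 and 0.47 on the Sox9 KO arrays and 0.04, -0.06 and 0.02 on the WT arrays. All 47 genes averaged -0.11, -0.06 and 0.23 on the Sox9 KO arrays and 0.02, 0.0047 and -0.03 on the WT arrays. Without that array the median difference of the 47 genes was -0.06 and that of the cartilage genes -0.13, and 3 genes were lower at an unadjusted p under 0.05, namely Col20a1 (-0.54), Col4a6 (-0.48) and Cnmd (-0.82), with adjusted p-values of 0.387, 0.381 and 0.235 (limma). In that fit 5.99% of all probe sets were called lower and 12.6% in either direction, beside 4 of the 47 genes in either direction.

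Markers of fibroblasts moved on the same array. Of 13 measured fibroblast markers, none of them a collagen, 11 were highest on Sox9 KO replicate 3. Between the genotypes, Fbln1 (0.48) was higher and Gsn (-0.80) lower at an unadjusted p under 0.05, with adjusted p-values of 0.405 and 0.456 (limma). Over all probe sets 4.28% were called higher and 4.99% lower. The 13 markers averaged -0.32, -0.09 and 1.30 relative to WT on the Sox9 KO arrays, and 0.31, -0.13 and -0.18 on the WT arrays. Their mean signal was 5.54 to 7.16 in Sox9 KO and 5.68 to 6.18 in WT. Dcn, the small proteoglycan decorin, had signals of 6.76, 7.72 and 10.56 in Sox9 KO cells, against 9.60, 7.72 and 7.73 in WT cells. Dpt, which encodes dermatopontin, had 5.35, 5.45 and 9.14 in Sox9 KO cells, against 6.20, 5.19 and 5.37 in WT cells. Sox9 KO replicate 3 and, for Dcn, WT replicate 1 stood above the others, while 8 of the 13 markers were above the bar on no array. Endothelial markers averaged -0.40, -0.07 and 0.57 on the Sox9 KO arrays and 0.58, -0.39 and -0.19 on the WT arrays. Leukocyte markers averaged -0.20, -0.23 and 0.36 on the Sox9 KO arrays and 0.01, 0.02 and -0.04 on the WT arrays. On Sox9 KO replicate 3, adipocyte markers averaged 0.15 and Schwann cell markers 0.08. Pericyte markers averaged 0.15 there, below the 0.25 of Sox9 KO replicate 1. The part of these cells in the collagen values was not tested, and in sorted bulk cells fewer cells of a type and less RNA per cell cannot be told apart.

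**Figure D4:**
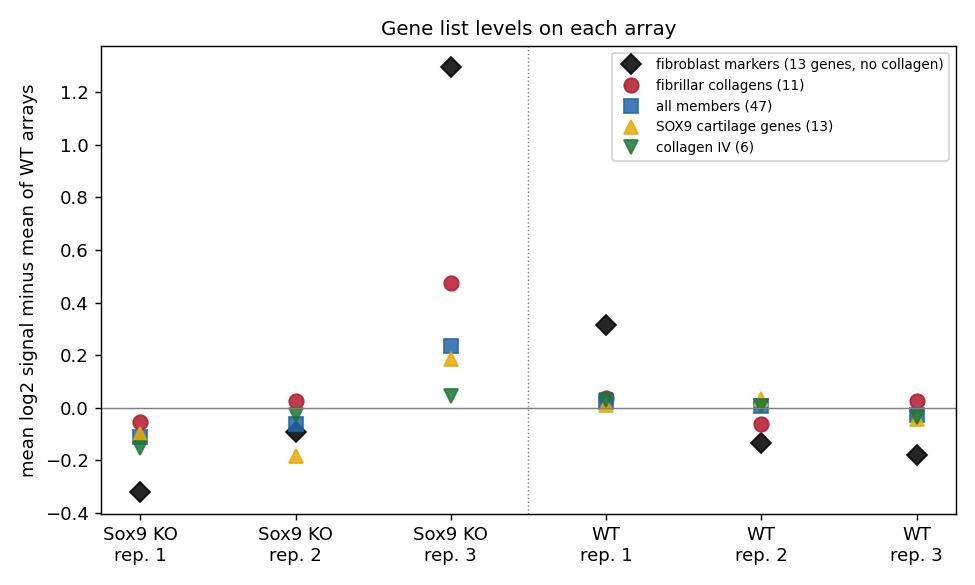
Mean log2 signal of 5 gene lists on each array, minus the mean of the 3 WT arrays (grey line at 0), Sox9 KO arrays on the left and WT arrays on the right. Fibroblast markers reach 1.30 and fibrillar collagens 0.47 on Sox9 KO replicate 3, while collagen IV stays between -0.15 and 0.05 on every array.

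FACIT collagens, which bind to fibril surfaces, held the gene with the smallest p of the 47. Of 8 measured chains 3 were higher in Sox9 KO cells and 5 lower, with a median of -0.02. Col19a1, a FACIT collagen of basement membrane zones, had signals of 5.97, 5.92 and 6.31 in Sox9 KO cells, against 5.57, 5.71 and 5.54 in WT cells. The groups did not overlap, with a gap between the lowest Sox9 KO array and the highest WT array. The difference was 0.46 (SE 0.15, 95% interval 0.11 to 0.81), with an adjusted p of 0.416 (limma). Leaving out single arrays moved it between 0.34 and 0.53, and without WT replicate 3 it was not called at an unadjusted p under 0.05. Its signals lay above 59.7% to 83.6% of the negative controls, below the bar on every array. Its promoter window, chr1:24587388-24587687 on the minus strand, held no SOX core and is shown because this gene had the smallest p.
Col19a1: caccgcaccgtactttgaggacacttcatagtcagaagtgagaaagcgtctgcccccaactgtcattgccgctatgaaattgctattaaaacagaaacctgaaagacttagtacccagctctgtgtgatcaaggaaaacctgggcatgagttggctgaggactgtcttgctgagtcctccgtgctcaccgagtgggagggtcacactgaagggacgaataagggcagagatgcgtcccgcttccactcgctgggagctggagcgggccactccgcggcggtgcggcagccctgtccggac

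Col16a1, another FACIT chain, had signals of 7.70, 8.37 and 8.34 in Sox9 KO cells, against 8.82, 8.40 and 7.97 in WT cells. The WT arrays were spread widely and took in 2 of the Sox9 KO values, and the difference was -0.26 (SE 0.26), or -0.04 if Sox9 KO replicate 1 is left out and -0.05 if WT replicate 1 is. The remaining FACIT chains, Col14a1, Col20a1 and Col22a1, differed by 0.09, -0.31 and -0.01. Of the network collagens, Col8a1 and Col8a2, the short chains of sheet-like matrices, differed by -0.18 (SE 0.17) and 0.20 (SE 0.20).

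Collagen IV, the network-forming collagen of basement membranes, differed little between genotypes. Of 6 chains 2 were higher in Sox9 KO cells and 4 lower, with a median difference of -0.01, and none was called. Col4a1 had signals of 7.02, 6.95 and 7.14 in Sox9 KO cells, against 7.08, 6.97 and 7.07 in WT cells. The groups were interleaved, and the difference was -0.0033 (SE 0.13, 95% interval -0.30 to 0.29). Col4a2, its partner in the usual basement membrane trimer, differed by -0.02 (SE 0.19). Col4a6, a chain of smooth muscle and epithelial basement membranes, had signals of 6.71, 6.65 and 7.13 in Sox9 KO cells, against 7.48, 6.96 and 7.04 in WT cells. Replicates 1 and 2 of Sox9 KO lay below all WT arrays and replicate 3 did not, with a difference of -0.33 (SE 0.20; adjusted p = 0.659, limma).

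Collagen IV genes lie in head-to-head pairs, so the chains of each pair were read together. The annotated starts of Col4a1 and Col4a2 are 21 bases apart on opposite strands of chromosome 8, and their windows share 78 bases. Those of Col4a6 and Col4a5 are 1343 bases apart on chromosome X. The chains of a pair differed by -0.0033 for Col4a1 and -0.02 for Col4a2, by 0.06 for Col4a5 and -0.33 for Col4a6, and by -0.13 for Col4a3 and 0.15 for Col4a4. Every one of these 6 intervals took in 0. The Col4a1 window, chr8:11312777-11313076 on the minus strand, is shown with the stretch it shares with the Col4a2 window in capitals.
Col4a1: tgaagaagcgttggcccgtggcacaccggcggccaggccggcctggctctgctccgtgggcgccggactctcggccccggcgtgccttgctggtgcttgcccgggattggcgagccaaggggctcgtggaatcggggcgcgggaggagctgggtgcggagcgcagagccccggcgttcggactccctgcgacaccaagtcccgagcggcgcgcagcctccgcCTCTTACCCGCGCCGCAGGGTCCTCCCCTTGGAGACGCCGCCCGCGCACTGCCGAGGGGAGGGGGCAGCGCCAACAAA

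Collagen VI, whose chains form beaded filaments around cells, had close signals in both genotypes. Of 6 measured chains 4 were higher in Sox9 KO cells, 1 was lower and Col6a3 was equal, and the median difference was 0.02. The differences ran from -0.15 for Col6a6 to 0.20 for Col6a5, and all 6 intervals lay within 1 of 0.

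Transmembrane collagens, which span the cell membrane, were split. Col17a1, a collagen of the hemidesmosomes that anchor basal epithelial cells, had signals of 4.79, 4.92 and 5.36 in Sox9 KO cells, against 4.80, 4.62 and 4.53 in WT cells. Replicates 2 and 3 of Sox9 KO lay above all WT arrays and replicate 1 fell just short of WT replicate 1, for a difference of 0.37 (SE 0.18; adjusted p = 0.584, limma). Markers of basal cells averaged 0.47, 0.84 and 0.83 above the WT mean on the Sox9 KO arrays, and 0.27, -0.38 and 0.11 on the WT arrays. Of these 10 markers 8 were higher in Sox9 KO cells and 2 lower, and the 4 called at an unadjusted p under 0.05 were Krt14 (2.57), Trp63 (1.99), Krt17 (1.15) and Snai2 (0.55). In that direction 4.28% of all probe sets were called, and none of the 10 markers passed the adjusted threshold. Oxtr (0.54), Krt5 (0.27) and the contractile genes Acta2 (0.10), Cnn1 (0.06), Myh11 (-0.03) and Mylk (-0.06) were not called. Their part in the Col17a1 values was not tested. Col25a1, best known in nerve and muscle, had signals of 6.09, 6.23 and 6.36 in Sox9 KO cells, against 6.37, 6.48 and 6.45 in WT cells. It was the only gene of the 47 with every Sox9 KO value below every WT value, though by a narrow gap, and the difference was -0.21 (SE 0.13; adjusted p = 0.682, limma). Col13a1, of cell adhesion sites, and Col23a1 differed by 0.00 (SE 0.21) and 0.18 (SE 0.15).

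The multiplexins Col15a1 and Col18a1, proteoglycan-like collagens of basement membrane zones, differed in opposite directions. Col15a1 had signals of 6.90, 7.02 and 6.81 in Sox9 KO cells, against 6.57, 6.73 and 6.68 in WT cells. Its groups did not overlap, and the difference was 0.25 (SE 0.13; adjusted p = 0.609, limma). Col18a1, the precursor of endostatin, had signals of 5.98, 6.01 and 6.18 in Sox9 KO cells, against 7.74, 6.56 and 6.12 in WT cells. The WT values were wide, with replicate 1 far above the others and replicate 3 inside the Sox9 KO range. The difference was -0.75 (SE 0.37, 95% interval -1.61 to 0.11; adjusted p = 0.592, limma), the largest of the 47 in size, and without WT replicate 1 it was -0.28. Without WT replicate 3 it was -1.09 and was called at an unadjusted p under 0.05 (adjusted p = 0.454, limma). Col26a1 and Col28a1 differed by -0.09 and 0.10.

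The genes that make, bind and cut collagen were read beside the chains. Of 28 measured processing genes (hydroxylases, chaperones, lysyl oxidases and propeptide proteases), 17 were higher and 11 lower in Sox9 KO cells. Their median difference was 0.03. At an unadjusted p under 0.05, 1 was called higher, a direction in which 4.28% of all probe sets were called. The called gene was Loxl1, a lysyl oxidase-like crosslinking enzyme, at 5.28, 5.66 and 6.22 in Sox9 KO cells, against 5.09, 4.77 and 5.28 in WT cells. The groups touched at 5.28, and the difference was 0.67 (SE 0.25; adjusted p = 0.471, limma). Plod2, a lysyl hydroxylase of collagen telopeptides, differed by 0.65 (SE 0.29; adjusted p = 0.561), and Crtap, a subunit of the prolyl 3-hydroxylation complex, by 0.29 (SE 0.14; adjusted p = 0.585).

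Of 8 collagen receptors 1 was called at an unadjusted p under 0.05, in the lower direction, in which 4.99% of all probe sets were called. Itga2, the alpha-2 integrin chain and a marker used for ER-negative luminal cells, had signals of 9.89, 9.75 and 9.51 in Sox9 KO cells, against 10.88, 10.82 and 10.39 in WT cells. The groups were well apart, and the difference was -0.98 (SE 0.18), with an adjusted p of 0.196 (limma). Itgb1, its beta-1 partner chain, had signals of 10.81, 10.63 and 11.07 in Sox9 KO cells, against 11.14, 11.33 and 11.12 in WT cells. These too did not overlap, with a difference of -0.36 (SE 0.16, adjusted p = 0.546, limma). Over all probe sets 7.3% did not overlap in the lower direction. Ddr1, a collagen-binding receptor tyrosine kinase of epithelia, differed by -0.29 (SE 0.18).

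Of 7 collagen-cleaving proteases 1 was called at an unadjusted p under 0.05, Mmp8, a neutrophil collagenase. It was lower, a direction in which 4.99% of all probe sets were called. Its signals were 3.29, 3.04 and 3.37 in Sox9 KO cells, against 3.53, 3.54 and 3.81 in WT cells. The difference was -0.39 (SE 0.15; adjusted p = 0.490, limma), from signals far below the bar. Mmp14, a membrane-bound collagenase, differed by 0.53 (SE 0.33). Of the SOX9 partners, Sox5 had signals of 6.34, 6.12 and 6.48 in Sox9 KO cells, against 5.73, 6.03 and 6.05 in WT cells. The groups did not overlap, as was so for 6.85% of all probe sets in the higher direction. The difference was 0.38 (SE 0.16, adjusted p = 0.531, limma). Sox6 differed by -0.43 (SE 0.32), with WT replicate 1 at 6.43 and the other WT arrays at 5.14 and 5.37.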

How the data were processed

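RNA of 3 Sox9 KO and 3 WT animals was measured on Affymetrix Clariom S Pico mouse arrays. The authors processed the scans with Expression Console and Transcriptome Analysis Console 4.0.1 and deposited log2 signals; how they were background-corrected and normalized is not given in the sources used here. The log2 scale was read from the range of the values. Of 28846 probe sets 6640 controls were left out and 22206 were tested, of which 19572 were named, as 19505 genes, through the platform annotation. The other 2634 are unnamed here. Col7a1 and Col12a1 have no named probe set and are not among the members. For genes with several probe sets the one with the highest mean was used. Tests used R 4.3.3 and limma 3.58.1 (lmFit and eBayes, genotype as the only term, both directions), and p-values were adjusted by Benjamini-Hochberg over all tested probe sets. The fit was run on simulated data with known changes, drawn with independent noise and without the compression of dim probe sets. That run does not show which changes could be found for these genes. The members and the gene lists were chosen with earlier results of these data known. Genes described singly were Sox9, the SOX9 cartilage genes, the 10 members of highest mean signal, the 8 of smallest p and those without overlap, and up to 3 genes of each other list; the basal and ER-positive markers, Dcn, Dpt, Sox6 and other members were named after their values were seen. The number of arrays limits the precision. Alternatives were other scalings, leaving out dim probe sets, other variance models, array weights, the replicate block, the methods' t-test and each array left out in turn.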

Additional observations from a re-analysis of the deposited data

How the results depend on the processing

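No collagen or cartilage gene passed the adjusted threshold under any alternative run. The count of members higher at an unadjusted p under 0.05 was 1 with median centring and 1 with array weights. Over all probe sets 3.22% and 5.5% were called higher in those fits. The count was 0 without dim probe sets, where 5.29% of the probe sets kept were called higher. That setting left only Col9a3 and Col16a1 and a median difference of -0.16. With single arrays left out the count of higher members ranged from 0 to 5, while 2.36% to 6.57% of all probe sets were called higher. The 5 came without Sox9 KO replicate 1, where that share was 3.98%. The count of lower members ranged from 0 to 3, while 3.27% to 5.99% of all probe sets were called lower. The methods' t-test called 2, Col19a1 and Col15a1, both higher, against 3.63% of all probe sets, and 0 after Benjamini-Hochberg. Replicate numbers are shared between the groups, but same-numbered arrays did not deviate together (correlations of 0.12, -0.03 and 0.03). With that number as a block in the fit 1 member, Col19a1, was called higher, against 4.73% of all probe sets. Sox9 had an adjusted p of 0.0505 under the block and 0.467 in the methods' t-test. Leaving out single arrays moved the median difference of the members between -0.06 and 0.10 and that of the cartilage genes between -0.13 and 0.10.

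Negative controls were dimmer in Sox9 KO arrays (median 4.62, against 4.85 in WT). Subtracting their median, an alternative added after their levels had been seen, shifted every difference by 0.22, so the members' median became 0.24, the cartilage median 0.23 and the median of all probe sets 0.23, and relative to that shift the differences are those given above. Over all probe sets, 6.95% were then called higher and 1.13% lower, and 3.22% higher and 6.37% lower with median centring, against 4.28% and 4.99% as deposited. With it Col25a1 turned to 0.0167, Hapln1 to 0.18, Col9a3 to 0.17, Col9a1 to 0.20 and Col4a1 to 0.22. Acan, near 0, turned to -0.0233 with quantile normalization, -0.035 with median centring and -0.11 with array weights, Col27a1 to -0.0083 with centring and -0.0913 with weights, and Col11a2 to -0.0093 with weights. With single arrays left out, the differences ran from -0.15 to 0.0767 for Hapln1, -0.13 to 0.21 for Acan, -0.055 to 0.04 for Col4a1, -0.18 to 0.28 for Col27a1, -0.21 to 0.14 for Col9a1, -0.22 to 0.15 for Col9a3 and -0.14 to 0.19 for Col11a2. The cause of these changes was not tested. The dimness of the probe sets limits what can be seen: a change of these genes below the background of the array would not show.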
